A study of Mus musculus with 4 samples.

Results

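Periostin and 5 other matricellular genes were followed in cultured mouse periosteal cells. The members were the rows of the deposited table whose gene symbol was Postn, Tgfbi, Tnc, Tnn, Tnxb or Sparc, which gave 6 of 45802 symbols. The study compared bulk RNA sequencing of PDGFRα reporter+ and PDGFRα reporter− cells, with 2 libraries of each. Male Pdgfrα-mTmG mice, in which Pdgfra regulatory sequence drives a tamoxifen-dependent Cre, received tamoxifen at 2 months of age (150 mg/kg daily over 5 days), so every group carried the same alleles and the same treatment. In such mice a membrane tdTomato is replaced by a membrane GFP in any cell that has had Cre activity, and in its descendants. Cells were digested from femurs and tibias 14 days after the last dose and grown for 1 passage with 10 ng/mL basic fibroblast growth factor and 15% serum. Cells negative for CD31, CD45 and Ter119 were then sorted as GFP+ (reporter+) or tdTomato+ (reporter−). Per the labels, cells of 3 to 6 mice aged 9 to 10 weeks were pooled for 1 population (the study's methods give another number of mice), so the values describe passaged cells of pooled animals. The libraries are named here by population and by the number in the column headings of the table, 2 or 3. The labels call the replicates 1 and 2, and no label ties libraries of like number to 1 preparation of cells, so that p-values measure only the spread between these libraries, which may be technical.

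Matricellular proteins are secreted into the extracellular matrix, where they bind collagens, fibronectin and cell-surface integrins and modulate how cells adhere, move and assemble matrix, rather than bearing load themselves. In bone, periostin takes its name from the periosteum, where it is made by fibroblast-like and osteoblast-lineage cells, is induced by transforming growth factor β and by mechanical load, and supports collagen cross-linking. The tenascins are large multimeric glycoproteins that appear in developing, healing and tendon-associated matrix, and SPARC (osteonectin) is a collagen- and mineral-binding protein that is abundant in bone.

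The stretches of DNA just upstream of Postn, Tnxb and Tnn are shown because these members differed most between libraries. They are the 250 bases before a transcription start, the first listed for each gene, from RefSeq on GRCm38.p6, written 5′ to 3′ on the strand of the gene, at chr3:54360857-54361106 (plus strand, Postn), chr17:34670285-34670534 (plus strand, Tnxb) and chr1:160153576-160153825 (minus strand, Tnn). Capitals mark the motifs found.
Postn: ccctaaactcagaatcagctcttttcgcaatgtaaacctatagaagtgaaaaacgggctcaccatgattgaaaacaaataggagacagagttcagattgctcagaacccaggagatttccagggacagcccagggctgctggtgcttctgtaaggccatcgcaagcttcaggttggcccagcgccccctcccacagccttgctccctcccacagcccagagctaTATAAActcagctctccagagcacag
Tnxb: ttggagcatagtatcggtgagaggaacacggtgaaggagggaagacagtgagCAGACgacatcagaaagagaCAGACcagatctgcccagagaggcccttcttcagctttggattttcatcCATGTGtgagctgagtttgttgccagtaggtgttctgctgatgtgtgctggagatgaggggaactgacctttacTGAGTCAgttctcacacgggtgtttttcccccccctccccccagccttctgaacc
Tnn: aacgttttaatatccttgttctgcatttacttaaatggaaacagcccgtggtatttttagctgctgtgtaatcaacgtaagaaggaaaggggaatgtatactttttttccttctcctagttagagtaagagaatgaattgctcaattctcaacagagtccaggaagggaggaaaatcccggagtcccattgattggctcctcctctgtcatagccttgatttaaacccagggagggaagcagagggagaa

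A total of 6 motifs were searched on both strands by their letters. They were the TATA box (TATAAA), the E-box bound by TWIST and other helix-loop-helix factors (CANNTG), the AP-1 site (TGANTCA), the GC box (GGGCGG), the SMAD-binding element (CAGAC) and the CArG box of serum response factor. No letters of 1 motif's match were shared with another's in these 3 sequences. The Postn sequence held a TATA box 26 bases before the start, a motif found in 12.4% of 32851 mouse promoters of the same length. A second Postn start was listed 1842 bases from the annotated one, with a SMAD-binding element and no TATA box in the bases before it. The Tnxb sequence held 2 SMAD-binding elements (in 42.2% of promoters), an E-box (66.2%) and 1 AP-1 site (6.75%), and the Tnn sequence held none of the 6. The remaining shares were 32.7% for the GC box and 1.47% for the CArG box. These matches describe letters only, and no binding was measured in this series.

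All 6 members had a value in all 4 libraries, as did 14415 of the symbols. The values were log2 expression after quantile normalization by the authors, with the unit under the logarithm not given. Depth is thus unknown. Levels of different genes are compared below only within the summed levels of lists, which add them in that unknown unit. Libraries with the same number resembled each other more (Pearson correlations across genes of 0.984 and 0.982) than libraries of the same population did (0.952 in reporter+ and 0.957 in reporter−). As a check of the label, the transcript of Pdgfra was 7.78 and 7.62 in the reporter+ libraries and 7.87 and 7.44 in the reporter− libraries. The ranges of the 2 populations overlapped for the Pdgfra transcript.

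The main question was how the members differed between PDGFRα reporter+ and reporter− cells. None of the 6 passed the test (limma without a block, Benjamini-Hochberg adjusted p = 1 for each), and neither did any of the 14415 genes, a background of 0%. At an unadjusted p under 0.05, 0 members and 131 genes passed. This fit leaves the difference between numbers in the residual spread. With the heading number as a block, the intervals were −1.58 to −0.70 for Postn, 0.17 to 1.08 for Tgfbi and 0.03 to 1.55 for Tnn. Those of Tnc, Tnxb and Sparc included 0. These intervals are not adjusted over genes and lean on a variance trend. No member passed with the block either (limma, adjusted p = 0.0647 for Postn), whereas 29 genes did. The differences of Tgfbi, Tnn and Sparc were above 0 in both numbers (3 of 6, against 22.1% of all genes), Sparc in number 2 by a margin that turned below 0 when the libraries were centred. That of Postn was below 0 in both numbers (1 of 6, against 24.8%), and those of Tnc and Tnxb had opposite signs in numbers 2 and 3 (2 of 6, against 53.1%). The median difference over the members was −0.04, beside −0.00 over all genes. The populations did not overlap for 1 of 6 members, Sparc, whereas this held for 15.7% of all genes. With 2 libraries against 2, an exact two-sided permutation test of 1 gene cannot go below 0.333, so none was used.

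**Figure D1:**
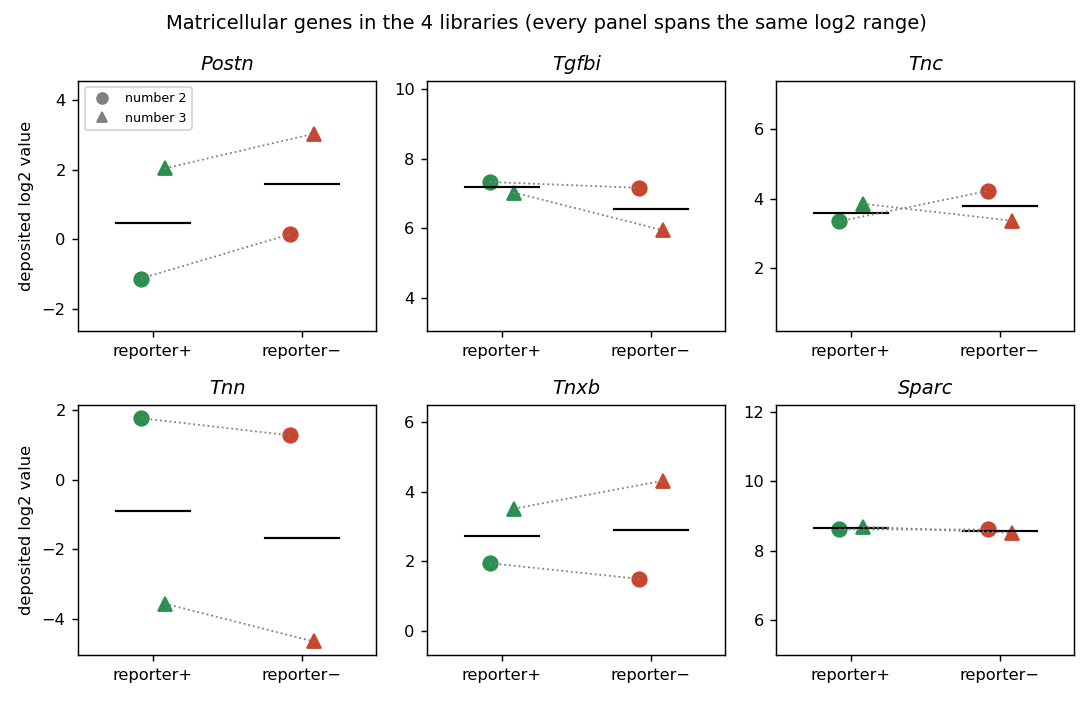
Deposited log2 values of the 6 members, 1 panel for each gene and all panels of equal height. Circles are libraries numbered 2, triangles libraries numbered 3, black bars the mean of a population, and dotted lines join libraries of the same number. Postn, Tnn and Tnxb were split by the number, with Tnn falling from 1.77 and 1.28 to −3.56 and −4.65, while Sparc lay between 8.51 and 8.68.

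Postn encodes periostin, a fasciclin-domain protein (chr3:54361109-54391037, plus strand, GENCODE M21 on GRCm38). Its log2 values were −1.13 and 2.04 in reporter+ libraries 2 and 3, and 0.14 and 3.04 in reporter− libraries 2 and 3. Within either number the reporter+ library was the lower one, by −1.28 in number 2 and −1.0 in number 3, but the ranges of the populations overlapped because both libraries numbered 3 were above both numbered 2. The means were 0.45 ± 2.24 in reporter+ and 1.59 ± 2.05 in reporter− cells (SD, n = 2). The fitted difference of −1.14 (SE 1.45, 95% CI −5.00 to 2.73) corresponds to a 2.20-fold lower value in reporter+ cells on the linear scale and was smaller than the spread between libraries (limma, unadjusted p = 0.472). In size it was the 204th most negative of 14415 differences, and the 12th of the 10224 whose mean over the libraries was 0 or more. With 1 added to the linear values, which damps low values, the difference was −0.69. With 1 library left out the numbers are no longer balanced between populations, so that the difference carries part of that between numbers. It then came to 0.45 without reporter+ library 2 and to 0.31 without reporter− library 3, values that say nothing of the stability of the direction within a number.

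Smooth muscle markers were read beside Postn. All 6 of its genes had lower values in reporter+ cells in both numbers, against 24.8% of all genes. Those with a mean of 0 or more were the smooth muscle actins Actg2 (a difference of −2.10) and Acta2 (−1.27) and transgelin, Tagln (−1.17). The summed level of the list was 2.71 and 4.69 in reporter+ libraries 2 and 3, and 4.62 and 5.32 in reporter− libraries 2 and 3 (log2 of summed linear values). The sum ordered the libraries as Postn did, and so did 3 of the 6 genes (Acta2, Tagln and Cnn1). For the other 3 (Actg2, Myh11 and Lmod1) both reporter+ libraries were below both reporter− libraries. Populations that did not overlap, in either direction, were seen in 15.7% of all genes. Myh11, the smooth muscle myosin that defines the contractile cell, was at −2.87 and −3.29 in reporter+ and at −0.80 and −0.57 in reporter− libraries. The part of these genes in the Postn values was not tested. In bulk RNA, fewer cells of a type and less RNA per cell cannot be told apart.

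Tgfbi encodes the other secreted fasciclin-domain protein, βig-h3, which is induced by transforming growth factor β and links collagens to integrins (chr13:56609523-56639562, plus strand). Its log2 values were 7.33 and 7.03 in reporter+ libraries 2 and 3, and 7.17 and 5.94 in reporter− libraries 2 and 3. The reporter− library numbered 3 was the low one and the other 3 lay close together, with the ranges of the populations overlapping. The difference of 0.63 (SE 0.45, 95% CI −0.57 to 1.82), or 1.54-fold higher in reporter+ cells, was within the spread (limma, unadjusted p = 0.229). It was 0.17 in number 2 and 1.09 in number 3, and came to 0.02 without reporter− library 3 and to 1.24 without reporter− library 2. In its direction, 5.17% of all genes differed by as much or more.

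Macrophages are a known source of βig-h3, and 12 of 13 macrophage markers were higher in reporter+ cells in both numbers (against 22.1% of all genes). The exception was Cd14. The summed level of the list was 8.01 and 8.22 in reporter+ libraries 2 and 3, and 6.67 and 7.57 in reporter− libraries 2 and 3. The sum did not order the libraries as Tgfbi did, since it was lowest in reporter− library 2, where Tgfbi was high, and not in reporter− library 3, where Tgfbi was lowest. The complement gene C1qb (1.48), the protease gene Ctss (1.41) and Adgre1, which encodes F4/80 (1.13), had the largest differences among markers with a mean of at least 0. Ptprc, which encodes the CD45 used to gate such cells out, was at −1.28 and −0.39 in reporter+ and at −2.30 and −1.22 in reporter− libraries. The part of these genes in the Tgfbi values was not tested.

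Among the tenascins, Tnc encodes tenascin-C, an anti-adhesive protein of healing and loaded tissue (chr4:63959785-64047015, minus strand). Its log2 values were 3.35 and 3.86 in reporter+ libraries 2 and 3, and 4.23 and 3.37 in reporter− libraries 2 and 3. The highest library was reporter− number 2, and the populations overlapped because reporter− number 3 lay between the reporter+ values. The difference was −0.88 in number 2 and 0.49 in number 3, and their mean was −0.19 (SE 0.36, 95% CI −1.15 to 0.76, limma, unadjusted p = 0.613). It turned to 0.06 without reporter+ library 2 and to 0.23 without reporter− library 2. The body of Tnc overlaps 8030451A03Rik on the opposite strand, which had no value in any library.

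Tnn encodes tenascin-N, also called tenascin-W, a tenascin of periosteum and osteogenic tissue (chr1:160085029-160153580, minus strand), whose upstream sequence above held none of the motifs searched. Its log2 values were 1.77 and −3.56 in reporter+ libraries 2 and 3, and 1.28 and −4.65 in reporter− libraries 2 and 3. Both libraries numbered 2 were high and both numbered 3 were far lower, and the populations overlapped. The population difference of 0.79 (SE 2.69, 95% CI −6.38 to 7.96) was small beside this spread (limma, unadjusted p = 0.782). The reporter+ library was higher by 0.49 in number 2 and by 1.09 in number 3. With 1 added to the linear values, the population difference was 0.21. With 1 library left out, the difference again carried part of that between numbers. Without reporter+ library 2 it became −1.88, without reporter− library 3 −2.17, without reporter+ library 3 3.46 and without reporter− library 2 3.76. The mean of Tnn over all libraries was below 0, so that it alone of the members is left out when genes of low value are removed.

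Tnxb encodes tenascin-X, a tenascin of loose connective tissue that associates with collagen fibrils (chr17:34670535-34719815, plus strand). Its log2 values were 1.95 and 3.52 in reporter+ libraries 2 and 3, and 1.50 and 4.32 in reporter− libraries 2 and 3. Both libraries numbered 3 were the high ones, and the reporter+ values lay between the reporter− values. The difference was 0.45 in number 2 and −0.80 in number 3, with a fitted value of −0.18 (SE 1.09, 95% CI −3.08 to 2.73, limma, unadjusted p = 0.879). It turned to 0.61 without reporter+ library 2 and to 1.24 without reporter− library 3, and reached −1.59 at the other extreme. The 3′ end of Tnxb shares 3 bases with Cyp21a2-ps, and an snRNA gene, Gm24389, lies within its body, both on the opposite strand and both with no value here.

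Sparc encodes osteonectin (chr11:55394500-55423183, minus strand). Its log2 values were 8.61 and 8.68 in reporter+ libraries 2 and 3, and 8.61 and 8.51 in reporter− libraries 2 and 3. All libraries lay within 0.176 of each other, and the reporter+ values were above the reporter− values by a margin that vanished when the libraries were centred. The means were 8.65 ± 0.05 in reporter+ and 8.56 ± 0.07 in reporter− cells (SD, n = 2). The difference of 0.09 had an interval of −0.54 to 0.71 (95% CI, limma, unadjusted p = 0.724), so that a change of up to 0.71 on the log2 scale lies within it.

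**Figure D2:**
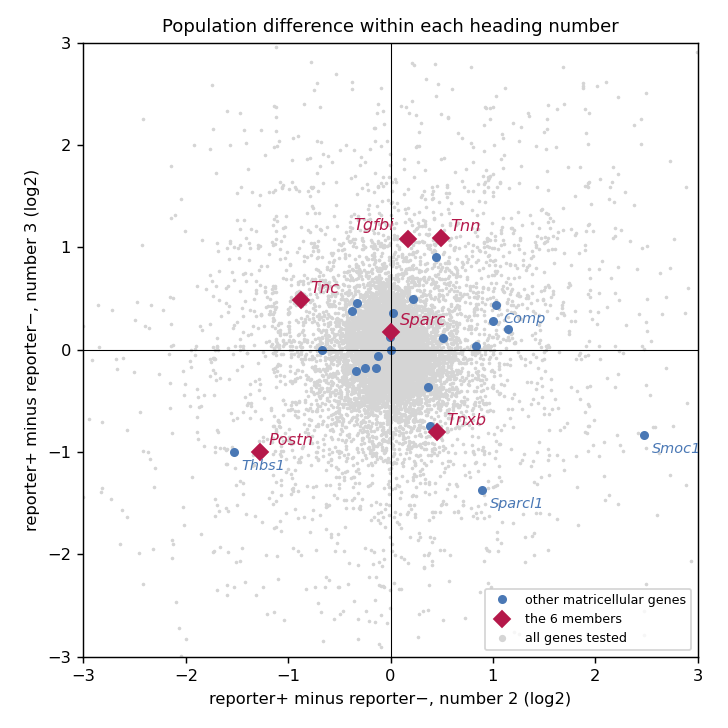
Difference between reporter+ and reporter− libraries (log2) in number 2 on the x axis and in number 3 on the y axis, for the 6 members (diamonds), other matricellular genes (blue circles) and all genes tested (grey). A total of 65 of 14415 genes lay beyond the axes. Postn lay in the lower left quadrant near Thbs1, at −1.28 and −1.0, and Tnc and Tnxb lay in opposite quadrants.

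The numbers in the headings separated the libraries for 4 of 6 members. Postn and Tnxb were higher in both libraries numbered 3 (2 of 6 members, where 36.4% of all genes did the same), and Tgfbi and Tnn were lower in both (2 of 6, where 28.8% of genes did). A share of 2 in 6 is close to these backgrounds. In an additive model of number and population, fitted with limma and with Benjamini-Hochberg adjustment over all genes, Postn and Tnxb were called as higher in number 3 (2 of 6, against 11.5% of genes), and Tgfbi and Tnn as lower (2 of 6, against 9.79%). This fit has 1 residual degree of freedom and leans on a variance trend shared among genes. Without the trend, 0 members and 0 genes were called, with 3909 genes at an unadjusted p under 0.05.

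Postn was 3.17 higher in number 3 in reporter+ cells and 2.89 higher in reporter− cells. The fitted 3.03 (SE 0.19, 95% CI 2.59 to 3.47) was an 8.18-fold rise on the linear scale, with an adjusted p of 2.74e-05 in limma and of 0.0536 without the trend. Only 0.860% of genes had a difference at least this high. Between the populations, the number difference of Postn varied by 0.28, far less than the difference itself.

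Tnn fell by 5.34 in reporter+ and fell by 5.93 in reporter− cells from number 2 to number 3. The fitted fall, −5.63 (SE 0.33, 95% CI −6.39 to −4.88), left the value 49.7-fold lower (adjusted p = 2.08e-05 in limma and 0.0536 without the trend). It was the most negative of the 14415 number differences. With 1 added to the linear values, which damps low values, the fall was −1.87 and its rank 35, and the difference of Postn was 1.97. The Tnn difference ranked 41 when blanks were filled with the lowest value, and it ranked between 2 and 7 with 1 library left out.

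Tnxb was 1.57 higher in number 3 in reporter+ cells and 2.83 higher in reporter− cells. The fitted 2.20 (SE 0.25, 95% CI 1.63 to 2.76) was 4.59-fold on the linear scale (limma, adjusted p = 0.000507, and 0.0947 without the trend). For Tgfbi the fitted value was −0.76 (SE 0.20, 95% CI −1.21 to −0.31), made of −0.30 in reporter+ and −1.22 in reporter− cells, with an adjusted p of 0.0266 in limma that rose to 0.235 without the trend. Between numbers, Tnc differed by 0.51 in reporter+ and by −0.86 in reporter− cells, and Sparc by 0.08 and −0.10. Neither was called between numbers (limma, adjusted p = 0.674 for Tnc and 0.974 for Sparc).

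**Figure D3:**
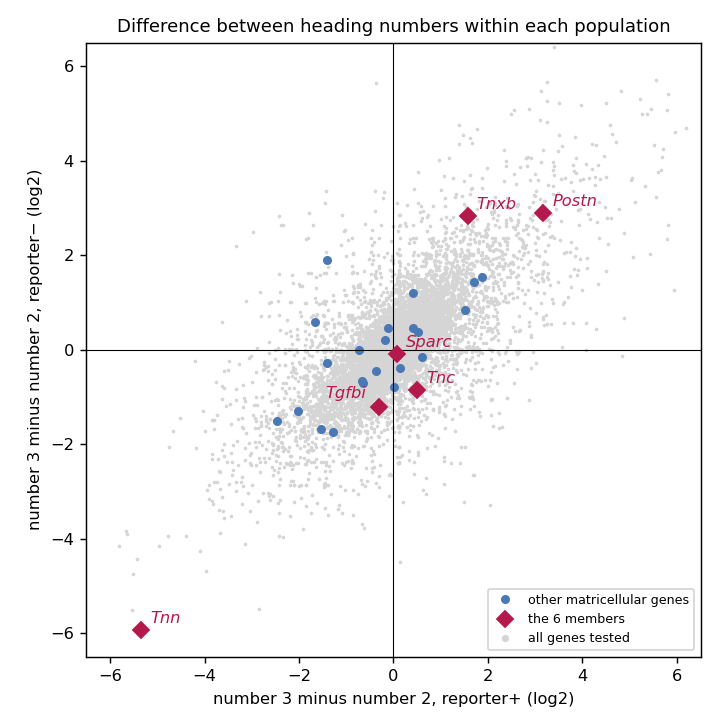
Difference between libraries numbered 3 and 2 (log2) in reporter+ cells on the x axis and in reporter− cells on the y axis, for the 6 members (diamonds), other matricellular genes (blue circles) and all genes tested (grey). A total of 6 of 14415 genes lay beyond the axes. Tnn lay at the far lower left (−5.34 and −5.93) and Postn at the upper right (3.17 and 2.89).

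The genes most like each member in pattern were found among those whose mean was 0 or more, by the root mean square difference of the 4 log2 values after each gene was centred on its own mean. For Postn these were Dio3, which encodes a thyroid hormone-inactivating deiodinase (0.0995), the Wnt antagonist gene Dkk2 (0.113) and the tight junction gene Cldn15 (0.333). Dkk2 had log2 values of −0.90 and 2.43 in reporter+ libraries 2 and 3, and 0.70 and 3.40 in reporter− libraries 2 and 3. Chosen for its likeness, it shared the pattern of Postn, with both libraries numbered 3 high and reporter+ below reporter− in each number.

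Nearest to Tnn were the elongation factor gene Eef1a2 (0.875), Fmod (0.984), which encodes the tendon proteoglycan fibromodulin, and the integrin gene Itgb7 (1.06). All were much farther off than for the other members. The mean of Tnn itself (−1.29) was below the limit set for its neighbors, so nearer genes of low value may have been left out. Fmod was 5.49 and −0.16 in reporter+ libraries 2 and 3, and 5.06 and 1.23 in reporter− libraries 2 and 3. Chosen for its likeness to Tnn, Fmod was high in both libraries numbered 2. Tnxb was nearest to the transcription factor gene Osr2 (0.118), to Kctd12 (0.130) and to Acss3 (0.164).

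The nearest genes to Tgfbi were the oxidase gene Nox4 (0.0861), LOC102633156 (0.0919) and the phosphatase gene Ppm1h (0.0981). For Tnc they were Ccnb1 (0.0701), which encodes cyclin B1, Ube2c (0.0894), a ubiquitin-conjugating enzyme gene of mitosis, and 3110001I22Rik (0.102). Sparc, which hardly varied, had Naa20 (0.00736), Lig3 (0.00993) and Ercc6l2 (0.0109) beside it. Each likeness rests on 4 libraries.

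Among relatives of the members, the remaining tenascin, Tnr, known from the nervous system, had values of −2.10 and −4.11 in reporter+ libraries and of −3.09 and −4.39 in reporter− libraries, and 2 of the 4 tenascins had differences above 0 in both numbers and 2 had opposite signs. The other genes with fasciclin domains are the scavenger receptors Stab1, with values of 1.55 and 1.75 in reporter+ and of 0.54 and 1.63 in reporter− libraries, and Stab2. Of these 4 fasciclin genes, 3 had differences above 0 in both numbers and Postn was the exception, with a median difference of 0.45. In the SPARC family, 7 of 8 genes had a value (not Spock1) and 6 had all 4, of which 2 were above 0 in both numbers and 4 were mixed (median 0.04). Fstl1 was at 8.44 and 9.05 in reporter+ and at 8.82 and 8.67 in reporter− libraries. The largest differences among its genes with a mean of 0 or more were those of Smoc1 (0.83), Smoc2 (0.31) and Sparcl1 (−0.23), calcium-binding matrix proteins like Sparc itself.

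A wider list of 25 matricellular genes, which holds no member but counts Tnr and the other SPARC family genes again, had 22 with all 4 values. Their differences were above 0 in both numbers for 8, below 0 for 6 and of opposite signs for 7, with a median of 0.03. The remaining 1, the osteopontin gene Spp1, had equal values in number 2. This was the highest value in the data, where quantile normalization fixes the value of a rank. The equality may thus reflect rank rather than equal expression. Thrombospondin-1, Thbs1, an activator of latent transforming growth factor β, had the largest difference among those with a mean of 0 or more, with values of 6.66 and 6.80 in reporter+ and of 8.19 and 7.80 in reporter− libraries. The populations did not overlap, with a difference of −1.26, and an adjusted p of 1 in limma without a block and of 0.0309 with the heading number as a block (0.466 with the block and no trend). Comp, the cartilage oligomeric matrix protein, had a difference of 0.74. The populations also did not overlap for Comp and Smoc2, with reporter+ above reporter−, and in either direction for 15.7% of all genes. Thbs1 and Comp were the 2 genes of the list at an unadjusted p under 0.05. Thbs1 and Postn were thus both lower in reporter+ cells in both numbers, but between numbers Thbs1 differed by only −0.12.

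Of 13 receptors of the members, 4 had differences above 0 in both numbers, 6 below 0 and 3 mixed, with a median of −0.04 and none called in limma. Among receptors with a mean of 0 or more, the largest differences were those of Itgb3 (−0.58), a subunit of the αvβ3 integrin that binds periostin, Stab1 (0.57), which takes up SPARC, and Itga3 (−0.53). Between numbers 8 of the 13 were called, 3 as higher (against 11.5% of all genes) and 5 as lower in number 3 (against 9.79%), and none without the variance trend. Chosen after its values were seen, Itga9, a subunit of the α9β1 receptor for tenascin-C, was 0.10 and 2.33 in reporter+ libraries 2 and 3, and 0.12 and 2.39 in reporter− libraries 2 and 3. It was split by the number and not by the population.

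Of 14 matrix partners and processing enzymes, 3 had differences above 0 in both numbers, 5 below 0 and 6 mixed (median −0.04, none called in limma), with the largest for fibronectin, Fn1 (−0.54), which binds periostin, tenascin-C and βig-h3, and for the collagen genes Col12a1 (0.52) and Col3a1 (0.39). Of 19 known upstream regulators of the members, 4 were above 0 in both numbers, 7 below 0 and 8 mixed (median −0.02, none called). Among these, the largest differences were those of Il13ra1 (0.51), a subunit of the interleukin-13 receptor whose signal induces Postn, the ligand gene Tgfb2 (0.51) and Twist2 (−0.30), a paralog of the Postn activator Twist1. Tgfb2 was the regulator at an unadjusted p under 0.05.

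Markers of other cell types and lineages were read beside the members, and 0 of any list were called between populations (limma without a block, adjusted p = 1). With the heading number as a block, limma called Lum (adjusted p = 0.0121), C1qb and Tyrobp (both 0.0437) and Actg2 (0.0473). None of these was called with the block and no trend. The summed level of the tendon markers, led by Fmod in number 2 and by Mkx in number 3, was 5.69 and 2.65 in reporter+ libraries 2 and 3, and 5.43 and 2.59 in reporter− libraries 2 and 3, with 3 of the 5 (Scx, Mkx and Fmod) called as lower in number 3 (against 9.79% of all genes) and Kera called as higher (against 11.5%). Tnmd, a defining tendon gene, was at −6.02 and −1.18 in reporter+ libraries and at −1.82 and −1.94 in reporter− libraries, with a number difference of 2.36 that was not called (limma, adjusted p = 0.110). As in the other lists, none was called between numbers without the trend. Cartilage markers were also lower in number 3, at 3.59 and 1.71 in reporter+ and at 3.98 and 2.44 in reporter− libraries, with 3 of 4 tested genes called as lower (against the same 9.79%) and Matn1 with no value. The part of either list in the Tnn values was not tested.

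Stromal markers summed to 10.33 and 10.29 in reporter+ and to 10.30 and 9.85 in reporter− libraries, with Lum (1.83), Dcn (1.39) and Ctsk (0.39) differing most. Of the 9, these 3 had differences above 0 in both numbers, 4 below 0 (Pdgfrb, Prrx1, Col1a1 and Col1a2) and 2 mixed (median −0.06). Osteoblast markers summed to 1.72 and 2.49 in reporter+ and to 1.15 and 2.30 in reporter− libraries. Of the 6 tested, 2 had differences above 0 in both numbers, 2 below 0 and 2 mixed (median −0.03). Alpl, the only 1 with a mean of 0 or more, had a difference of 0.80. Between numbers, 3 of the 6 (Alpl, Bglap2 and Dmp1) were called as higher in number 3 (against 11.5% of all genes). So were 6 of the 13 macrophage markers, and none of either list was called as lower. Endothelial markers summed to −1.22 and 0.56 in reporter+ and to 0.44 and 2.07 in reporter− libraries. Their differences were below 0 in both numbers for 6 of 7 (against 24.8% of all genes). None of the list had a mean of 0 or more. The sum followed the order of Postn, as did Tek and Esam, whereas Pecam1, Cdh5, Kdr and Emcn had both reporter+ libraries below both reporter− libraries. Pecam1 encodes the CD31 used to gate such cells out. Skeletal muscle markers summed to −0.72 and −1.53 in reporter+ and to 1.54 and −0.28 in reporter− libraries. Their 3 genes with all values, Des (−2.00), Acta1 (−2.01) and Myh3 (−3.57), had means below 0 and populations that did not overlap (against 15.7% of all genes), and Myf5 and Pax7 had no value. Schwann cell markers summed to between 0.44 and 2.10, with Sox10 valued only in the reporter− libraries. The part of these lists in the member values was not tested.

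**Figure D4:**
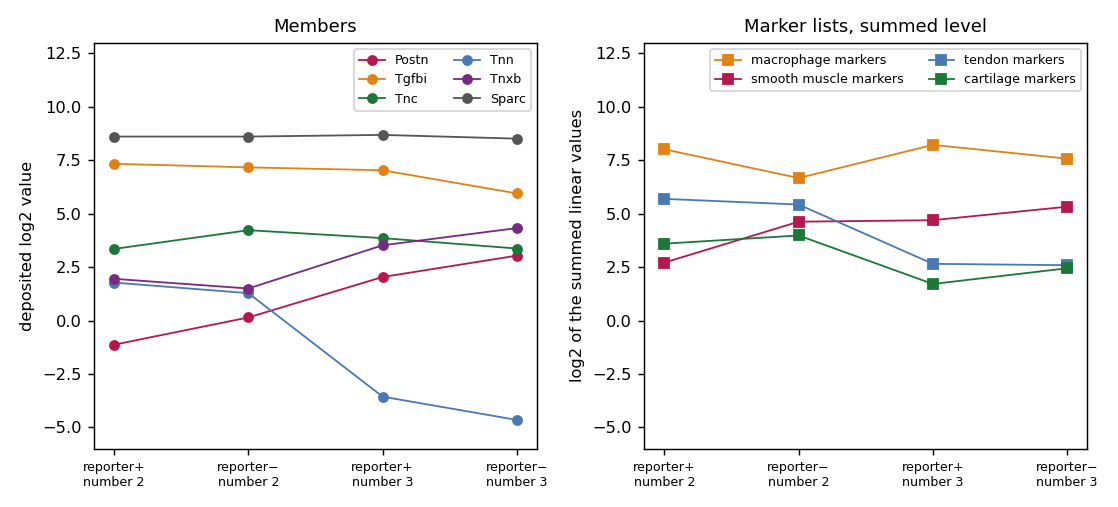
Left, deposited log2 values of the members, and right, summed levels of 4 marker lists (log2 of summed linear values), in the 4 libraries ordered by number and population. Lines only join points of the same gene or list. Postn and the sum of the smooth muscle list had the same order of libraries (−1.13, 0.14, 2.04 and 3.04 for Postn), and Tnn and the sum of the tendon list were both lower in number 3.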

How the data were processed

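Total RNA of 4 libraries of sorted periosteal cells was analysed. The deposited values were log2 expression after quantile normalization by the authors, 1 per symbol and library, with blanks where no value was given. The submitters' processing notes name bcl2fastq 2.17.1.14, Partek 7.0 and GRCm38.p6. The aligner, the counting, the annotation and the linear unit are not given in the sources used here, so that depth and counting error are unknown. Libraries had 15423 to 15605 values each, with equal quartiles (−1.47, 1.48 and 3.00).

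Libraries were grouped by the labels. Differences are reporter+ minus reporter− and number 3 minus number 2, over the 14415 genes valued in all 4 libraries. They were tested with limma 3.58.1 (R 4.3.3, eBayes with a trend, two-sided) at a Benjamini-Hochberg adjusted threshold of 0.05, with code tested on simulated data. Summaries used Python 3.11.15 with pandas 2.3.3 and numpy 2.4.6, and plots matplotlib 3.10.9. Named in full were the 6 members, from each other list the 3 genes with the largest absolute population difference and a mean of at least 0, and the 3 nearest genes to each member. Alternatives were a replicate block, no trend, a mean of at least 0, 1 added to linear values, centring, filled blanks and leaving out each library. Members and lists were chosen with earlier results of these data known. Gene positions came from GENCODE M21. RefSeq promoters were matched by symbol for 6 of 6 members.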

Additional observations from a re-analysis of the deposited data

Results flagged for a closer look

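Several genes had differences of opposite sign under the same contrast in the 2 numbers or populations, with 1 library on each side, and these contrasts between numbers or populations were not tested. Between reporter+ and reporter− cells, Tnc differed by −0.88 in number 2 and by 0.49 in number 3, and Tnxb by 0.45 and −0.80. From number 2 to number 3, Tnc differed by 0.51 in reporter+ and by −0.86 in reporter− cells, and Sparc by 0.0776 and −0.0974. Of the other genes named, Smoc1 differed between populations by 2.48 in number 2 and by −0.83 in number 3, Sparcl1 by 0.90 and −1.37, Fmod by 0.43 and −1.39, and Mkx by −0.37 and 0.48. Between populations, opposite signs in the 2 numbers were seen in 53.1% of all genes.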

How the results depend on the processing

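Over the alternatives to the main settings, 14 values reversed, 11 lost a call or lost count by more than 1.5 times and 5 gained count. The other 151 kept their direction and, where tested, their side of the threshold, or were counts within 1.5 times of the main one, such as 3 members called between numbers in place of 4, with 1 exception: the median over the members, −0.04, came to 0.03 without reporter− library 3, a small move against its spread. With 1 library left out in turn, which unbalances the numbers, the population difference also carried part of that between numbers and ranged from −2.72 to 0.45 for Postn, from −0.62 to 0.23 for Tnc, from −2.17 to 3.76 for Tnn and from −1.59 to 1.24 for Tnxb, the median over the members ranged from −0.20 to 0.29, and 1 to 5 of the 6 members had populations that did not overlap, where 55.7% to 60.3% of all genes did the same. The number difference then ranged from −0.86 to 0.51 for Tnc and from −0.0974 to 0.0776 for Sparc. No member was called between populations under any alternative. Centring the libraries left 0 members with separate populations. Without the trend, no genes or members (0) were called between numbers, with the differences themselves at 3.03 for Postn, −0.76 for Tgfbi, −5.63 for Tnn and 2.20 for Tnxb. Tgfbi also lost its call with 1 added to the linear values (−0.75, adjusted p = 0.110 in limma) and with blanks filled (−0.76, adjusted p = 0.139), and the genes called between numbers came to 1825 and 1256 under these settings. Tnn could not be fitted with a mean of at least 0.

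With the heading number as a replicate block, 29 genes were called between populations, against 12 in the fit limited to means of 0 or more and 0 without the trend. Postn was at an adjusted p of 0.0647 in limma under this block and of 0.463 with the block and no trend. No call of a member changed. Of the genes on the lists, Thbs1 (adjusted p = 0.0309), Lum (0.0121), C1qb and Tyrobp (both 0.0437) and Actg2 (0.0473) were called in limma under this block and none of them without the trend. Deviations from the population means had a correlation of 0.681 between libraries with the same number. With 2 pairs and no label that ties them, this is a hint from the data only.

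The unknown depth and 2 libraries in each population limit the precision. The interval for Postn spans −5.00 to 2.73 without the block and −1.58 to −0.70 with it. The narrower interval is not adjusted over genes, has 1 residual degree of freedom and leans on the variance trend.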
